A study of Rattus norvegicus with 8 samples.

Results

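Eph receptors and ephrins were followed across 4 groups of hippocampal neurons through the probes of 10 genes: the B receptors Ephb1 and Ephb2, the A receptors Epha3, Epha4, Epha5 and Epha7, the A ephrins Efna1 and Efna5, and the B ephrins Efnb1 and Efnb2. A probe was taken as a member when the gene name in its array file, with the endings for predicted or mapped genes removed, was that of one of these genes. By this rule 9 of the 10 genes had a probe, with 14 probes of the 41012 on the array besides controls, and Epha4 had none. The array carries 18365 distinct gene names.

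Eph receptors are receptor tyrosine kinases that bind ephrins on neighbouring cells, and signals run both forward into the cell with the receptor and in reverse into the cell with the ephrin. A receptors mainly bind A ephrins, which are held in the membrane by a lipid anchor, and B receptors mainly bind B ephrins, which span it. In the hippocampus they guide axons during development, and in the adult they act on dendritic spines, on glutamate receptors at the synapse and on synaptic plasticity.

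The arrays were single-colour Agilent whole-genome rat arrays, 8 in all, with 2 for each group. All rats were male Sprague-Dawley rats, and neurons of the CA3 hippocampus were captured by laser from frozen brain sections stained with Fluoro-Jade, a dye for degenerating neurons. Naïve rats had no treatment, sham rats had the surgery without the injury, and injured rats had a moderate fluid percussion brain injury, a pressure pulse onto the exposed dura; brains of sham and injured rats were taken 24 hours later. From injured rats, Fluoro-Jade-negative neurons are called surviving and Fluoro-Jade-positive neurons dying, with about 600 neurons from at least 3 rats pooled for each replicate, so that no array stands for a single animal. Surviving neurons were taken only where they lay next to dying ones, so that surviving and dying pools may share rats. Which replicates share rats is not stated, and the main fit takes the arrays as independent. The stain labels a state at the time of death of the rat, and no neuron was followed to its fate.

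Values are log2 of the processed signal of a probe over the median of all probes on its array, so that 0 is the signal of the median probe. They compare arrays for 1 probe and do not rank probes, whose binding strengths differ. A probe counts as measured on an array where the scanner software marked it well above background. Before scaling, naïve arrays had median signals of 27.2 and 22.7, sham arrays of 16.5 and 16.4, arrays of surviving neurons of 52.2 and 48.2 and those of dying neurons of 19.2 and 52.6. Naïve arrays measured 22445 and 22390 probes well above background, sham arrays 20910 and 20191, those of surviving neurons 29345 and 27079 and those of dying neurons 24057 and 27995. The 2 arrays of a group limit the precision.

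Dying replicate 1 stood apart, with a median signal of 19.2 where the other 3 arrays of injured rats had 48.2 to 52.6. Over probes that both replicates measured, their difference had an SD of 1.18 for dying neurons, against 0.68 for surviving neurons, 0.54 for sham and 0.74 for naïve rats. Differences of the tested member probes between surviving and dying neurons are therefore given also without each dying array, save for 1 probe each of Ephb1 and Epha7 that dying replicate 1 did not measure. Such a fit takes the spread of the lone dying array from the other groups. The 4 arrays of injured rats lay on one slide and the 4 of sham and naïve rats on another. Slide and injury therefore cannot be told apart in any comparison with sham, whereas surviving against dying and sham against naïve lie within a slide.

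**Figure D1:**
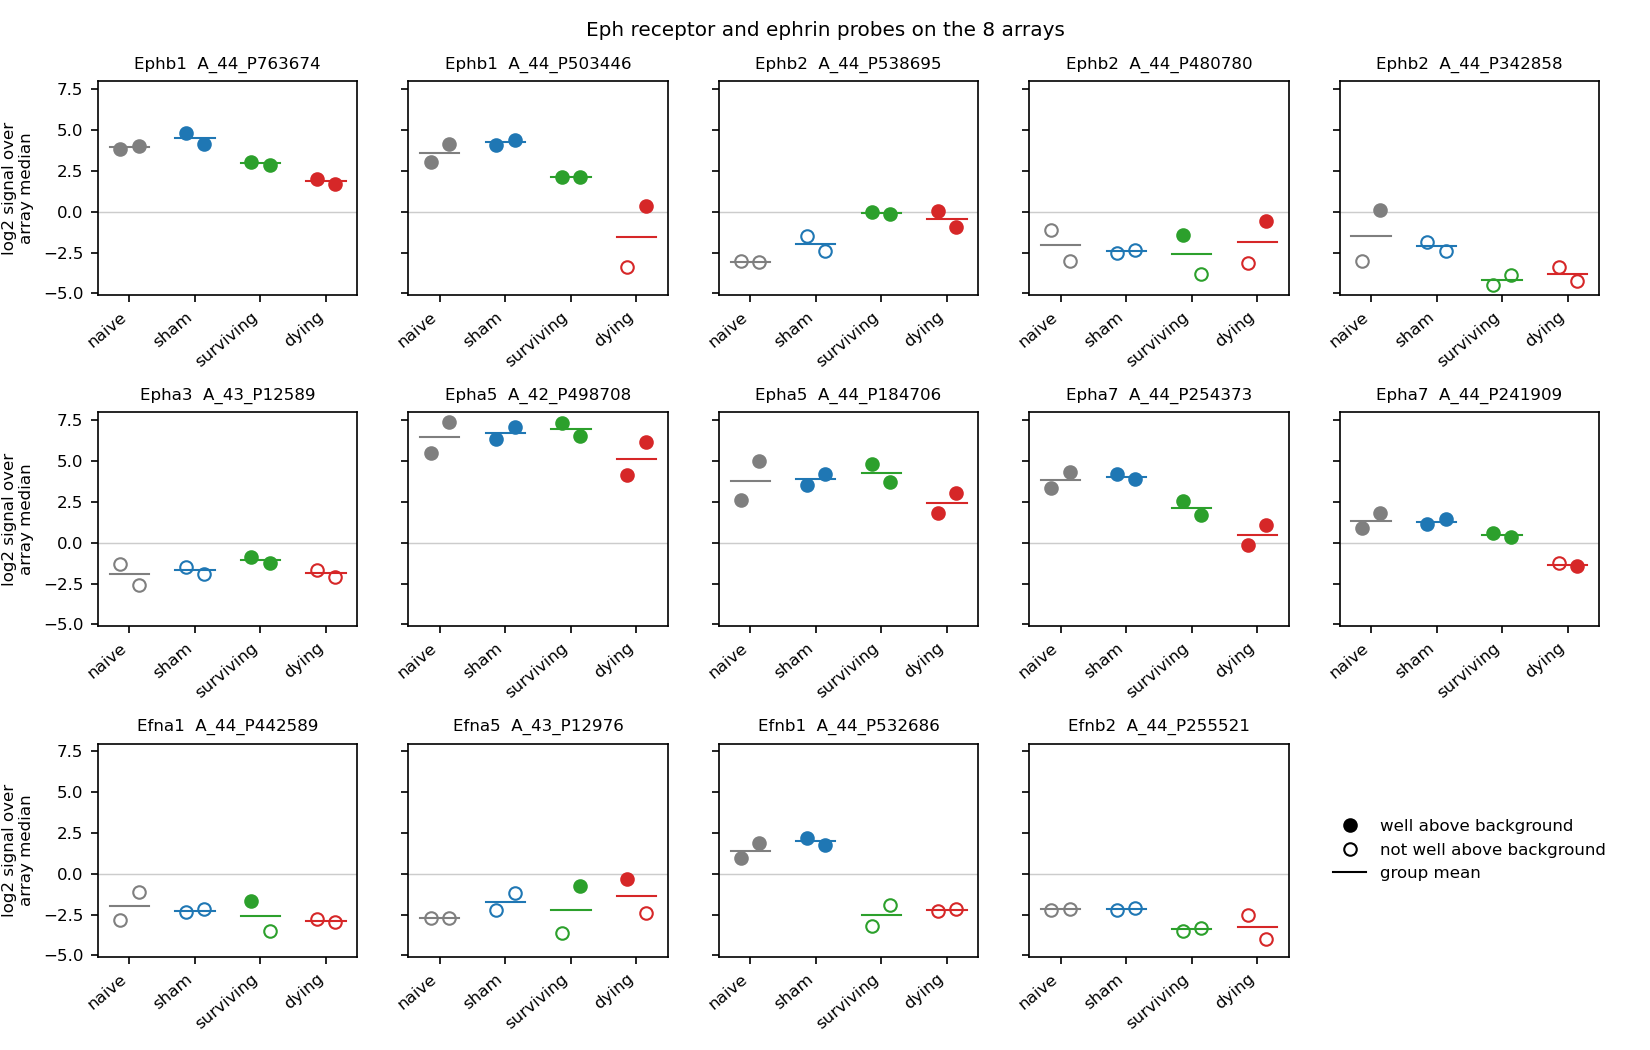
Log2 signal over the array median (vertical axis) of the 14 probes on the 8 arrays by group (horizontal axis), with filled points for arrays on which the probe was well above background, open points where it was not, and lines for group means. Both probes of Ephb1 and both of Epha7 lie lower in dying than in surviving neurons, and Efnb1 is above background in naïve and sham rats alone.

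The question between surviving and dying neurons was which transcripts separate cells that differ in Fluoro-Jade staining after the same injury. A probe was tested when at least 1 of the 2 groups had it well above background on both of its arrays, so that a probe measured only where it is high had to differ. Of the 14 probes 8 were tested, standing for 5 genes. Both surviving arrays lay above both dying arrays for 7 of the 8, where 30.4% of all 27391 probes tested did so, and both lay below for 0 of the 8, against 21.8% of all. An unadjusted p under 0.05 with the higher level in surviving neurons was found for 4 of the 8, against 10.9% of all, and without surviving replicate 1 for 2, against 4.53% of all. In limma, a linear model fitted to all probes at once, 0 of the 8 and 0 of all 27391 probes passed an adjusted p of 0.05, which is 0% of all, with 5898 at an unadjusted p under 0.05. Fitted to those 4 arrays alone with a crossed pairing of replicates as a block, chosen after seeing the data, 1 of the 8 passed as higher in surviving neurons, beside 0.737% of all. The 4 probes are pairs from Ephb1 and Epha7, which share a transcript within each pair and are not separate observations. Of these, Ephb1 A_44_P503446 and Epha7 A_44_P241909 entered the test through surviving neurons alone, since dying replicate 1 did not measure them. Among the 7 probes Epha3 did so too, with no dying array above background. Such probes lend the counts no support. With probes above background on all 4 arrays, 0 of 5 member probes passed in limma, beside 0% of all 21253.

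The median log2 difference, surviving minus dying, was 1.72 over the 8 tested probes, with readings below background counted in, and 0.14 over all probes tested. The median of all probes moved to -0.20 when arrays were scaled to the median of RefSeq probes, to 0.20 at the 75th percentile, to 0.07 after quantile normalization and to 0.35 after the normexp background correction. All 8 differences stayed positive under these scalings except that of Epha3, which was -0.03 with normexp. Leaving out dying replicate 2 brought 6002 of all 28209 probes tested past the adjusted threshold, or 21.3%, 3245 of them higher in surviving neurons, or 11.5%, and 2 of 9 member probes, both higher. Leaving out dying replicate 1 brought 0 past it, with 4100 at an unadjusted p under 0.05 in limma. Among the member probes that passed without dying replicate 2, Ephb1 A_44_P503446 was below background on the dying array left. It was tested there through surviving neurons alone. Fewer cells of a type and less RNA per cell cannot be told apart in pools such as these.

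Against sham, the question was how neurons of injured rats differ from those that had the surgery alone. Of 8 member probes tested between dying neurons and sham, 5 passed as lower, against 29.0% of all 25623 probes, and 1 as higher, against 15.1%. Of 9 tested between surviving neurons and sham, 2 passed as lower, against 12% of all 26905 probes, and 1 as higher, against 6.82%. The 1 that passed as higher is Ephb2 A_44_P538695 in both, which no sham array measured. When probes had to be above background on all 4 arrays, 2 of 4 member probes were lower and 0 higher in dying neurons, beside 37.3% and 6.92% of all 16180, and 1 of 6 was lower and 0 higher in surviving neurons, beside 16% and 1.12% of all 18171. With normexp 0 passed. These comparisons share the sham arrays. With readings below background counted in, the median difference was -2.61 over the member probes and -0.46 over all probes for dying neurons, and -0.81 and -0.43 for surviving neurons. With the scaling to the 75th percentile the median of all probes was 0.26 for dying and 0.36 for surviving neurons, with quantile normalization 0.21 and 0.18, with RefSeq probes -0.31 and -0.62, and with normexp -0.28 and 0.09. Under each of these scalings the member differences kept their signs, 1 positive and 7 negative for dying neurons and 4 positive and 5 negative for surviving neurons.

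The number of all probes past the threshold against sham depended on single arrays. For dying neurons it was 11289 with all arrays, 3050 without sham replicate 1 and 5174 without sham replicate 2, of which lower ones were 8.37% and 14.7% of those tested, against 19.9% and 29.9% without dying replicates 1 and 2. For surviving neurons it was 5076, and 253 and 513 without sham replicates 1 and 2, and 415 and 361 without surviving replicates 1 and 2. Of the member probes, 5 fell in dying neurons without sham replicate 2, without dying replicate 1 and with all arrays, 4 without sham replicate 1 and 6 without dying replicate 2. In surviving neurons fewer member probes passed whichever array was left out, as fewer of all probes did. Between sham and naïve rats, 0 of 7 member probes tested and 0 of 20676 probes passed in limma, which is 0%, with 0 and 997 at an unadjusted p under 0.05. The median difference there was 0.28 over the members and 0.37 over all probes, and 6 of the 7 differences were positive, but 3 of 7 with the 75th percentile or quantile scaling, where the median of all probes was 0.08 and 0.04, and 7 of 7 with normexp, where it was 0.59.

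**Figure D2:**
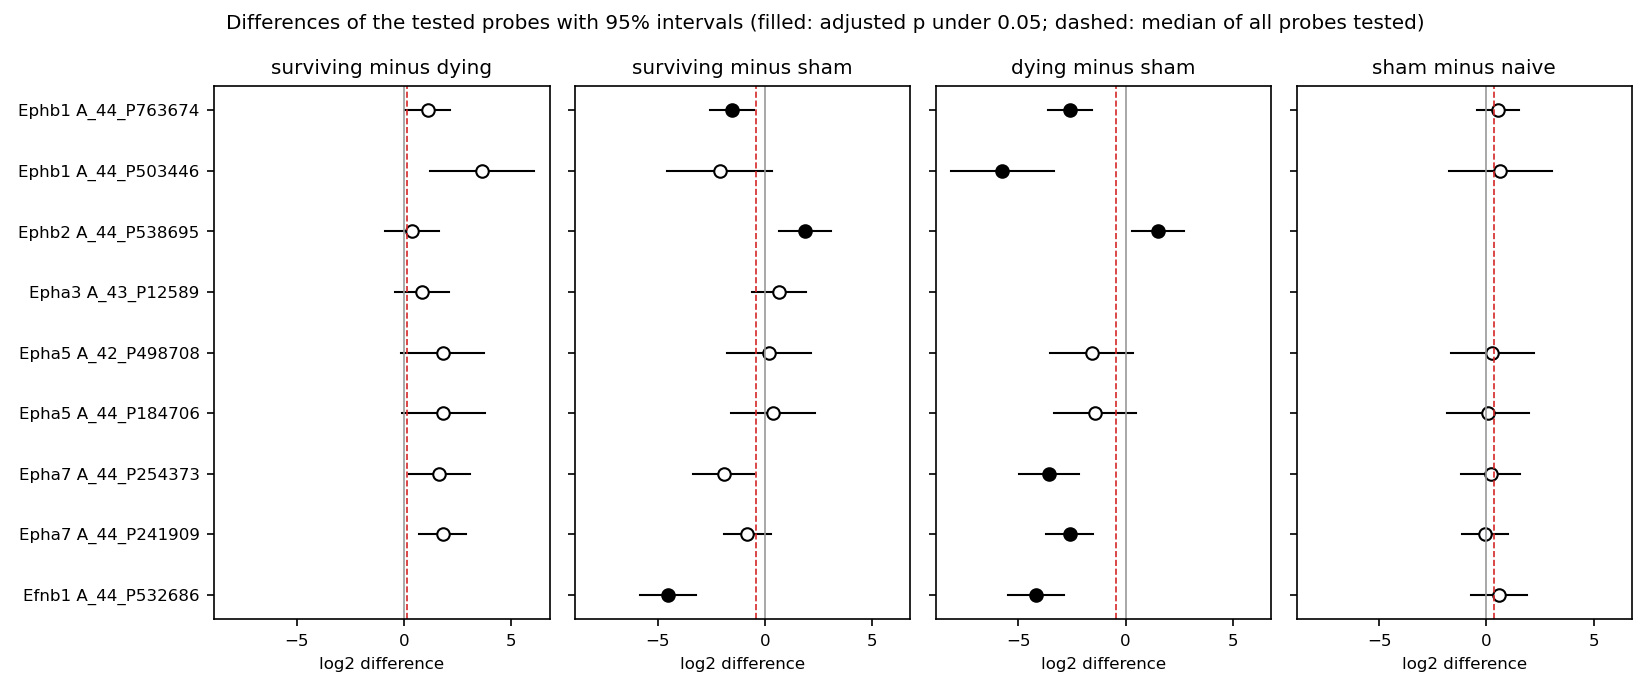
Log2 differences (horizontal axis) of the tested member probes (vertical axis) in the 4 comparisons, with 95% intervals, filled points for an adjusted p under 0.05 and a dashed line at the median of all probes tested. Filled points appear only in the comparisons with sham, 3 for surviving and 6 for dying neurons, and the points of Ephb2 and Efnb1 against sham and of Epha3 are differences of readings where 1 of the groups was below background, as are in part those of the second Ephb1 and Epha7 probes with dying neurons.

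With all arrays, the member probes that passed as lower against sham were those of the receptors Ephb1 and Epha7 and of Efnb1, a ligand of B receptors. The 250 bases before the transcription starts of these genes are shown, chosen after the values had been seen. They come from RefSeq on the build GRCr8, for which 9 of the 10 members had a promoter entry: Ephb1 at chr8:111823760-111824009 on the minus strand, Epha7 at chr5:47771643-47771892 on the plus strand and Efnb1 at chrX:68297279-68297528 on the plus strand. Capitals mark CCAAT, the letters of the CCAAT box, and TGACG, the first bases of the cAMP response element, each searched on both strands.
Ephb1: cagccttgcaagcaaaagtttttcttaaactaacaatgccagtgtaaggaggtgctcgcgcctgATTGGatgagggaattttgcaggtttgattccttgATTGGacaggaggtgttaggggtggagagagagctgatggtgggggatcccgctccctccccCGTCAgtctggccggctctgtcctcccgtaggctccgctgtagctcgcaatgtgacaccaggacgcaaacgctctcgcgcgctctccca
Epha7: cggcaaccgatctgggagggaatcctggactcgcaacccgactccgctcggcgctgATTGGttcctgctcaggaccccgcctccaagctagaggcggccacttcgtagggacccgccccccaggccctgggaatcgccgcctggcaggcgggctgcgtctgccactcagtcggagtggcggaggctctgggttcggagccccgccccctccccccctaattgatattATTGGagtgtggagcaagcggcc
Efnb1: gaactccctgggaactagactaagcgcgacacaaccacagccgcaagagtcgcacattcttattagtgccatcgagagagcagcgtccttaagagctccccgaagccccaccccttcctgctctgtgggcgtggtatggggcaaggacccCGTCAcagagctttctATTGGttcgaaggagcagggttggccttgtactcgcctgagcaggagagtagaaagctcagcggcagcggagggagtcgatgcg
CCAAT occurred 2 times before Ephb1, 2 times before Epha7 and 1 time before Efnb1, and 34.0% of all 33469 windows of this length held it. TGACG occurred 1 time before Ephb1 and 1 time before Efnb1, and 18.2% of windows held it. GGGCGG, the GC box, occurred 2 times before Epha7 and in 30.5% of windows, while TATAAA (12.9% of windows) and the full element TGACGTCA (1.59%) were in none of the 3. Guanine and cytosine made up 56.4% of the Ephb1, 67.6% of the Epha7 and 58.4% of the Efnb1 window. A match describes letters and not a site in use.

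Ephb1 encodes a receptor for B ephrins that steers retinal axons at the optic chiasm and takes part in synaptic plasticity, and the study named it among genes higher in surviving neurons from these same arrays, so that its values here are not independent evidence. Its brighter probe, A_44_P763674, read 3.85 and 4.01 in naïve rats, 4.79 and 4.15 in sham rats, 3.04 and 2.86 in surviving neurons and 2.02 and 1.70 in dying neurons. All 8 values were well above background, sham lay highest and dying neurons lowest, and no 2 groups overlapped. The difference between surviving and dying neurons was 1.09 on the log2 scale (SE 0.45, 95% interval 0.06 to 2.13), or 2.13-fold, with an adjusted p of 0.214. It was 1.25 without dying replicate 1 and 0.93 without dying replicate 2. Between dying neurons and sham, the level fell by 2.61 (SE 0.45, adjusted p = 0.00415), or 6.11-fold, and the difference was -2.77 and -2.45 without dying replicates 1 and 2. That call was lost without sham replicate 1, where the difference was -2.29 (adjusted p = 0.0522), and with normexp (-1.66, adjusted p = 0.519), over 15 alternatives whose adjusted p ran from 0.00173 to 0.519. Between surviving neurons and sham, the level fell by 1.52 (SE 0.44, adjusted p = 0.0497), just inside the threshold. This call held in 3 of 15 alternatives, with adjusted p from 0.0207 to 0.993, and was lost whichever array was left out: -1.20 and -1.84 without sham replicates 1 and 2, and -1.61 and -1.43 without surviving replicates 1 and 2. Naïve and sham rats differed by less, 0.54 (adjusted p = 0.882).

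The other Ephb1 probe, A_44_P503446, which carries the accession of the same transcript, read 3.05 and 4.13 in naïve rats, 4.08 and 4.38 in sham rats, 2.15 and 2.10 in surviving neurons and -3.38 and 0.33 in dying neurons. Dying replicate 1 was the only array on which it was not well above background, and it lay far under dying replicate 2. Naïve and sham rats overlapped, and surviving and dying neurons lay apart from them and from each other. Surviving and dying neurons did not pass with both dying arrays (adjusted p = 0.130), and with 1 of them below background no size is given. Without dying replicate 1 the difference was 1.79 (adjusted p = 0.273). Without dying replicate 2 the probe passed (adjusted p = 0.00929, over 14 alternatives from 0.00929 to 0.641), but the dying array left is the one below background, so that it gives no size either. Between dying neurons and sham the level passed as lower (adjusted p = 0.00501), again with 1 of the 2 dying arrays measured. Without dying replicate 1 it fell by 3.90 (adjusted p = 0.00925). The call was lost with normexp, over alternatives with adjusted p from 0.00109 to 0.519. Surviving neurons and sham differed by -2.11 (adjusted p = 0.184), which passed when only those 4 arrays were fitted (adjusted p = 0.00652, over alternatives from 0.00652 to 0.835). Whether the size of the difference differs between the Ephb1 probes was not tested.

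Ephb2 encodes a receptor for B ephrins that binds NMDA receptors and acts in the formation of dendritic spines, and it had 3 probes on 1 predicted transcript. Probe A_44_P538695 read -3.04 and -3.11 in naïve rats, -1.49 and -2.43 in sham rats, -0.01 and -0.17 in surviving neurons and 0.05 and -0.97 in dying neurons. It was well above background on the 4 arrays of injured rats and on 0 of the others, surviving and dying neurons overlapped, and both lay above sham. Against a group that never measured a probe, a fold change can only be bounded: each array of that group was given its own lowest signal among probes it did measure, or the reading of the probe if this was higher. Surviving neurons lay at least 1.10-fold above sham, and the call (adjusted p = 0.0464) rests on sham readings below background. The readings of dying neurons also passed as higher than those of sham (adjusted p = 0.0496), but the sham bound lay above their mean, so no fold is given. Each of these calls held in 3 of 14 alternatives, with adjusted p from 0.0131 to 0.909 for surviving and from 0.0111 to 0.824 for dying neurons. For surviving neurons the call was lost without sham replicate 1, sham replicate 2, surviving replicate 1 or surviving replicate 2 (adjusted p = 0.136, 0.238, 0.199 and 0.220), and for dying neurons without sham replicate 1, sham replicate 2 or dying replicate 1 (adjusted p = 0.0891, 0.2745 and 0.204). Surviving and dying neurons differed by 0.37 (adjusted p = 0.729), by 0.88 without dying replicate 1, by -0.14 without dying replicate 2 and by -0.24 as a mean over the 3 probes. The other probes, A_44_P480780 (-3.79 to -0.56) and A_44_P342858 (-4.48 to 0.11), were measured on 2 arrays, surviving replicate 1 and dying replicate 2, and on 1, naïve replicate 2, and were not tested.

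Among the A receptors, Epha3, which acts in axon guidance and cell repulsion, had 1 probe, A_43_P12589. It read -1.29 and -2.58 in naïve rats, -1.49 and -1.91 in sham rats, -0.87 and -1.24 in surviving neurons and -1.69 and -2.07 in dying neurons. Only the surviving arrays were well above background, both lying above the dying arrays, and the whole range was narrow. Surviving neurons lay at least 1.58-fold above dying neurons (adjusted p = 0.413), and the probe could be tested only because surviving neurons were above background. With both dying arrays below background, log2 differences of the readings give no size. They were 0.83 with all arrays and 1.02 and 0.63 without dying replicates 1 and 2. Sham arrays did not measure the probe either, the mean reading of surviving neurons was not above the sham bound, and no fold against sham can be given (adjusted p = 0.414).

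Epha5, a receptor for A ephrins that acts in the mapping of hippocampal axons onto their targets, had 2 probes from different accessions. Probe A_42_P498708 read 5.49 and 7.36 in naïve rats, 6.35 and 7.07 in sham rats, 7.31 and 6.52 in surviving neurons and 4.11 and 6.14 in dying neurons. Probe A_44_P184706 read 2.61 and 4.98 in naïve rats, 3.55 and 4.17 in sham rats, 4.79 and 3.72 in surviving neurons and 1.80 and 3.04 in dying neurons. On both probes all arrays were well above background, naïve, sham and surviving values overlapped, and the dying values lay below surviving and sham values, dying replicate 1 lowest. Surviving minus dying was 1.79 (SE 0.85, 95% interval -0.17 to 3.75, adjusted p = 0.266) on the first probe, and 0.77 and 2.81 without dying replicates 1 and 2. It was 1.83 (SE 0.84, 95% interval -0.12 to 3.78, adjusted p = 0.255) on the second, and 1.21 and 2.45 without them. Dying neurons differed from sham by -1.59 (adjusted p = 0.1496) and -1.44 (adjusted p = 0.185), the latter being -0.82 and -2.06 without dying replicates 1 and 2. On the first probe the difference passed without dying replicate 2 (-2.60, adjusted p = 0.0383, over 15 alternatives from 0.0383 to 0.721) and was -0.57 without dying replicate 1. Surviving neurons differed from sham by 0.20 (95% interval -1.75 to 2.16) and 0.39 (95% interval -1.56 to 2.34), with adjusted p of 0.880 and 0.761. The sign turned on the first probe without sham replicate 1 (-0.16) or surviving replicate 1 (-0.19), and on the second without surviving replicate 1 (-0.15).

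Epha7, a receptor for A ephrins that acts in axon repulsion and in shaping cortical dendrites, had 2 probes on the same RefSeq transcript. Probe A_44_P254373 read 3.33 and 4.33 in naïve rats, 4.20 and 3.87 in sham rats, 2.54 and 1.66 in surviving neurons and -0.17 and 1.08 in dying neurons. All arrays were well above background, naïve and sham overlapped, and below them surviving and dying neurons formed separate steps. Between surviving and dying neurons the difference was 1.64 (SE 0.62, 95% interval 0.22 to 3.07), or 3.13-fold, with an adjusted p of 0.187. It was 1.02 without dying replicate 1 and 2.27 without dying replicate 2, the latter past the threshold (adjusted p = 0.0478, over 15 alternatives from 0.0478 to 0.641). Dying neurons fell by 3.57 against sham (SE 0.61, adjusted p = 0.00422), or 11.9-fold, and the difference was -2.95 and -4.20 without dying replicates 1 and 2. That call was lost in 1 of 15 alternatives, normexp (-1.92, adjusted p = 0.519, the range being 0.00160 to 0.519). Surviving neurons differed from sham by -1.93 (SE 0.62, adjusted p = 0.0632), outside the threshold, and passed it when only those 4 arrays were fitted (adjusted p = 0.0153, over alternatives from 0.0153 to 0.844).

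The other Epha7 probe, A_44_P241909, read 0.88 and 1.79 in naïve rats, 1.12 and 1.42 in sham rats, 0.58 and 0.33 in surviving neurons and -1.27 and -1.41 in dying neurons. Dying replicate 1 alone was not well above background, naïve and sham overlapped, and surviving and then dying neurons lay below them, with the dying replicates close together. Surviving and dying neurons did not pass (adjusted p = 0.125, with 1 of the 2 dying arrays measured), and the difference was 1.87 without dying replicate 1, the array below background. Dying neurons passed as lower than sham (adjusted p = 0.00504), and fell by 2.68 without dying replicate 1 (adjusted p = 0.01785), a call lost in 1 of 14 alternatives, normexp (adjusted p = 0.519, the range being 0.00492 to 0.519). Surviving neurons differed from sham by -0.81 (95% interval -1.91 to 0.28, adjusted p = 0.244).

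Epha4, a receptor for both classes of ephrins that acts on CA1 spines with astrocytic ephrin-A3, had no probe under its own name. The array holds 3 probes named RGD1560587 and described as similar to Eph receptor A4, a name that the reference lists as a synonym of Epha4, and they were added after their values had been seen. The brightest, A_44_P762133, read 8.14 and 8.74 in naïve rats, 9.102 and 8.62 in sham rats, 6.54 and 7.19 in surviving neurons and 3.54 and 5.20 in dying neurons. All were well above background, and surviving and dying neurons lay below the overlapping naïve and sham values and apart from each other. Surviving minus dying was 2.50 (SE 0.63, 95% interval 1.03 to 3.96, adjusted p = 0.121), 1.67 without dying replicate 1 and 3.33 without dying replicate 2 (adjusted p = 0.0145, over 15 alternatives from 0.0145 to 0.641). Dying neurons fell by 4.49 against sham (SE 0.63, adjusted p = 0.00237), or 22.5-fold, and the difference was -3.66 and -5.32 without dying replicates 1 and 2. Normexp was the only one of 15 alternatives in which that call was lost (-4.24, adjusted p = 0.519, the lowest being 0.000802). Surviving neurons differed from sham by -1.99 (adjusted p = 0.0619).

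The other probes of RGD1560587 did not share this order. Probe A_44_P464812 read -1.06 and -0.82 in naïve rats, 0.44 and 1.70 in sham rats, 2.66 and 1.78 in surviving neurons and 0.82 and 2.13 in dying neurons, with the naïve arrays alone not well above background. Surviving and dying neurons overlapped (0.75, adjusted p = 0.541), with a difference from 0.09, without dying replicate 1, to 1.40, without dying replicate 2, when single arrays were left out, and 0.31 and 1.18 without surviving replicates 1 and 2. Dying minus sham was 0.40 (adjusted p = 0.625), or -0.23 without sham replicate 1 and -0.25 without dying replicate 2. Probe A_43_P21063 ranged from -2.16 to 0.94 and was measured on 3 arrays, those of surviving neurons and dying replicate 2, with no difference past the threshold between surviving and dying neurons (adjusted p = 0.627). Without dying replicate 2 no dying array measured it, and the difference was 0.07 without dying replicate 1. Which of these probes reads the Epha4 transcript was not tested, since no probe sequences were at hand.

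The A ephrins among the members were near background. Efna1, a ligand of A receptors first found in endothelium, ranged from -3.51 to -1.13 on probe A_44_P442589 and was measured on 1 array, surviving replicate 1. Efna5, a ligand that repels growing axons and binds Epha5 and Epha7, ranged from -3.63 to -0.30 on probe A_43_P12976 and was measured on 2 arrays, surviving replicate 2 and dying replicate 1. Neither was tested in any comparison, and a difference was not detectable at these signals.

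Efnb1, a B ephrin that spans the membrane and signals in reverse when bound by B receptors, read 0.93 and 1.86 in naïve rats, 2.20 and 1.75 in sham rats, -3.17 and -1.92 in surviving neurons and -2.26 and -2.13 in dying neurons on probe A_44_P532686. It was well above background on all arrays of naïve and sham rats and on none of the 4 from injured rats, and the ranges of these sets lay far apart. With the main scaling, surviving neurons lay at least 15.4-fold below sham, and dying neurons at least 12.9-fold. The calls (adjusted p = 0.00444 for surviving and 0.00228 for dying neurons, SE 0.57 on the log2 scale for each) rest on readings below background in injured rats. Over the alternatives the log2 difference of these readings from sham ran from -5.15 to -1.34 for surviving neurons. For dying neurons it ran from -4.40 to -1.02, so the bounds are no minimum over the alternatives. The call for surviving neurons was lost without sham replicate 1 (adjusted p = 0.0596) and with normexp (adjusted p = 0.508), over 14 alternatives with adjusted p from 0.00277 to 0.508. The call for dying neurons was lost in 1 of 14, normexp, with adjusted p from 0.00222 to 0.519, and held without dying replicate 1 (0.0123) or 2 (0.003995). Surviving and dying neurons, both below background, could not be compared, and every array on which Efnb1 was measured lay on the slide of naïve and sham rats. Sham and naïve rats overlapped (0.58, adjusted p = 0.882). Its promoter window, printed above, holds CCAAT and TGACG 1 time each. Efnb2, the other B ephrin, which acts in vessel formation and at synapses, ranged from -3.99 to -2.12 on probe A_44_P255521 and was well above background on 0 arrays.

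Of the 14 probes, 4 were measured on all 8 arrays, 1 on none, and 5 were tested in no comparison. Of the 9 genes with a probe, the receptors Ephb1, Epha5 and Epha7 had every probe measured on at least 1 array of every group, whereas of the 4 ephrins only Efnb1 was measured on both arrays of any group.

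**Figure D3:**
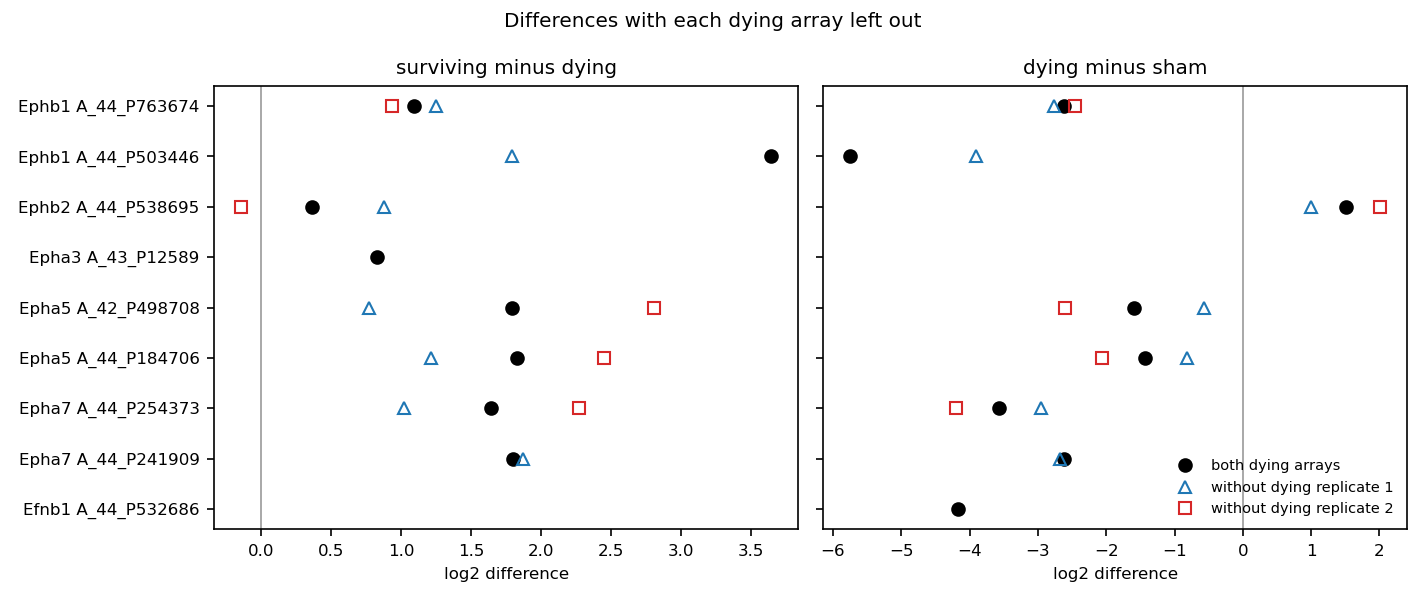
Log2 differences (horizontal axis) of member probes (vertical axis), surviving minus dying and dying minus sham, with both dying arrays (filled circles), without dying replicate 1 (open triangles) and without dying replicate 2 (open squares). Points are left out where the only dying array left is below background, the circles of the second Ephb1 and Epha7 probes include such an array, and the points of Ephb2 against sham and of Epha3 and Efnb1 are readings against or of a group below background. The first Ephb1 probe moves from 0.93 to 1.25 between surviving and dying neurons, and the first Epha5 probe from 0.77 to 2.81.

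Across the 8 arrays, the Pearson r with Ephb1 A_44_P763674 was 0.932 for Epha7 A_44_P254373, 0.927 for RGD1560587 A_44_P762133 and 0.456 and 0.451 for the Epha5 probes. The named probes most like Ephb1, among 9157 with a gene name and above background on all arrays, were RGD1308535, described as similar to Pygopus homolog 2 (r = 0.999), Cript, a postsynaptic protein (0.997), Magoh, of the exon junction complex (0.996), Bcl2l2, which opposes apoptosis (0.996), and RGD1564921, described as similar to peptidyl prolyl isomerase H (0.996). Cript read 8.12 and 8.13 in naïve rats, 8.80 and 8.28 in sham rats, 7.22 and 6.99 in surviving neurons and 6.39 and 6.11 in dying neurons, the same order of groups as Ephb1. These r values describe 8 arrays that share 4 groups and 2 slides, they were the highest of many, and no p is given.

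The rest of the family, a list of 12 genes of which 10 had a probe by name, gave 15 probes. Between surviving and dying neurons 12 were tested, 9 with a positive and 3 with a negative difference (8 and 4 when scaled to RefSeq probes, 10 and 2 with normexp), with a median of 0.60. Of the 12, 0 passed in limma and 1 was higher in surviving neurons at an unadjusted p under 0.05, beside 10.9% of all probes, the Epha6 probe A_44_P441293, whose level in surviving neurons was at least 4.70-fold that in dying neurons (adjusted p = 0.106), and which is singled out after its values were seen. Without dying replicate 2, 3 of 12 passed as higher in surviving neurons and 0 as lower, beside 11.5% and 9.77% of all probes. Against sham, 2 of 12 rose in surviving neurons and 0 fell, beside 6.82% and 12% of all probes tested, and in dying neurons 2 of 9 rose and 2 fell, beside 15.1% and 29.0%. Both that rose in surviving neurons were below background on the sham arrays and could be tested only because they were high after injury. With probes above background on all 4 arrays 0 of 5 passed in surviving neurons, and in dying neurons 1 of 4 rose and 1 fell, beside 6.92% and 37.3% of all. At the 75th percentile 4 rose and 0 fell in surviving neurons, beside 15.4% and 5.58% of all, and 4 rose and 1 fell in dying neurons, beside 27.5% and 18.6%. With quantile normalization 2 rose and 0 fell in each, beside 8.34% and 5.71% for surviving and 20.5% and 16% for dying neurons, and with normexp 0 passed. Each of the counts from all arrays was 0 without sham replicate 1, and those for surviving neurons were 0 whichever array was left out. In dying neurons 1 fell without sham replicate 2, beside 14.7% of all, and 1 rose without dying replicate 1, beside 7.38%. In surviving neurons the ones that rose were Epha1 A_44_P542339, at least 3.44-fold (adjusted p = 0.0281), and Ephb3 A_43_P20544, at least 6.52-fold (adjusted p = 0.0287). In dying neurons both Epha1 probes tested rose, A_44_P542338 by 1.48 on the log2 scale and A_44_P542339, which no sham array measured, at least 2.51-fold. Efna3 A_44_P399203 fell by 2.17 (adjusted p = 0.0115). The other Efna3 probe, A_44_P252644, which no sham array measured, did not fall: dying neurons lay at least 1.27-fold above sham (adjusted p = 0.133). Its difference between surviving and dying neurons was 0.22 (adjusted p = 0.901). Epha6 A_44_P375661 passed as lower in dying neurons than in sham (adjusted p = 0.0291). It was measured on dying replicate 2 alone of the dying arrays, at 2.52 against 4.84 and 4.23 in sham rats, so that no size is given. Between sham and naïve rats 0 of 5 passed in limma, with 0 at an unadjusted p under 0.05.

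By the rule for named genes, the family probes of largest difference between surviving and dying neurons, among 8 above background on all 4 arrays, were those of Ephb3, Efna3 and Ephb6. Ephb3, a receptor for B ephrins, read 1.53 and -1.45 in naïve rats, -1.82 and -0.76 in sham rats, 2.69 and 2.26 in surviving neurons and 1.08 and 1.26 in dying neurons. Efna3, the astrocytic ligand of Epha4, read 5.64 and 5.98 in naïve rats, 6.96 and 6.61 in sham rats, 5.86 and 5.68 in surviving neurons and 4.08 and 5.15 in dying neurons. Ephb6, a receptor without kinase activity, read 5.74 and 6.60, then 6.81 and 6.74, then 6.84 and 6.73, and then 5.78 and 6.32 in the same order. All 3 lay higher in both surviving than in both dying arrays, with differences of 1.31 for Ephb3, 1.16 for Efna3 and 0.74 for Ephb6 and adjusted p of 0.433, 0.235 and 0.407. Without dying replicate 1 these differences were 1.22, 0.62 and 0.47, and without dying replicate 2 they were 1.40, 1.69 and 1.0045. Only that of Efna3 without dying replicate 2 passed (adjusted p = 0.0437, over 15 alternatives from 0.0437 to 0.641). Ephb4 has probes only under the name LOC686310, outside the name rule and added after the values were seen. One of them, A_44_P278116, read 0.04 and 0.98 in naïve rats, 1.20 and 1.42 in sham rats, 0.41 and -0.36 in surviving neurons and -2.05 and -2.39 in dying neurons. It was below background on both dying arrays alone, so that surviving neurons lay at least 3.34-fold above them (adjusted p = 0.114) and dying neurons at least 8.12-fold below sham (adjusted p = 0.00264). The difference of its readings between surviving and dying neurons was 2.42 and 2.07 without dying replicates 1 and 2. Over 14 alternatives it ran from 0.41 to 2.63, so the bound holds for the main scaling alone. The other, A_44_P268168, ranged from -3.11 to -1.82, was measured on 1 array, surviving replicate 1, and was not tested, and its surviving and dying readings overlapped.

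Signals from Eph receptors and ephrins reach the cytoskeleton and the synapse through kinases, adaptors, exchange factors, GTPases and their effectors. A list of 48 such partners had 46 with a probe, each read from its brightest, and since the study picked several of them on these arrays their counts are not independent evidence. Between surviving and dying neurons 40 were tested, with 0 past the threshold in limma, 9 higher and 2 lower in surviving neurons at an unadjusted p under 0.05, beside 10.9% and 10.6% of all probes, and a median difference of 0.40. Positive differences numbered 29 of 40, and 21 when arrays were scaled to RefSeq probes, 27 with quantile normalization, 30 with the 75th percentile and 35 with normexp. Without dying replicate 2, 9 of 42 passed as higher and 3 as lower, beside 11.5% and 9.77% of all. Against sham, 18 of 39 fell and 1 rose in dying neurons, beside 29.0% and 15.1% of all probes tested, with a median of -1.28. In surviving neurons 6 of 41 fell and 2 rose, near the 12% and 6.82% of all probes, with a median of -0.70. At the 75th percentile 13 fell and 3 rose in dying neurons, beside 18.6% and 27.5% of all, and 3 fell and 3 rose in surviving neurons, beside 5.58% and 15.4%. With quantile normalization these were 10 and 3 in dying neurons, beside 16% and 20.5%, and 4 and 2 in surviving neurons, beside 5.71% and 8.34%, and with normexp 0 passed. With probes above background on all 4 arrays 15 of 33 fell in dying neurons, beside 37.3% of all, and 6 of 36 in surviving neurons, beside 16%, and 0 rose, beside 6.92% and 1.12%. With the scaling to the median of all probes, the numbers that fell in dying neurons were 3 without sham replicate 1, 8 without sham replicate 2 and 12 without dying replicate 1, beside 8.37%, 14.7% and 19.9% of all. Those that rose were 2 without dying replicate 1 and 3 without dying replicate 2, beside 7.38% and 20.6%, and in surviving neurons 0 passed whichever array was left out. Beside the 29.0% of all probes that fell in dying neurons, 4 of 5 GTPases fell, as did 4 of 8 exchange factors and GTPase activators, 3 of 6 adaptors and phosphatases, 2 of 6 kinases, 2 of 8 effectors, 2 of 5 synaptic partners and the sheddase Adam10, which cleaves ephrins. Between sham and naïve rats 0 of 37 passed in limma, with 1 at an unadjusted p under 0.05, beside 4.82% of all.

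The partners of largest difference between surviving and dying neurons were taken 3 in each direction among 35 above background on all 4 arrays. Of those higher in surviving neurons Nck1 and Rhoa are described and 1 is left out, and those lower were Vav2, Wasl and Arhgef15. Nck1, an adaptor that binds phosphorylated Eph receptors, read 4.11 and 4.35 in naïve rats, 5.02 and 4.98 in sham rats, 3.81 and 3.40 in surviving neurons and -0.73 and 2.84 in dying neurons. Rhoa, a GTPase of actin contraction, read 4.42 and 5.48, then 5.78 and 5.97, then 5.74 and 5.51, and then 2.47 and 4.75 in the same order. For each gene both dying arrays lay below both surviving arrays, with dying replicate 1 below dying replicate 2. Surviving minus dying was 2.55 (adjusted p = 0.197) for Nck1 and 2.01 (adjusted p = 0.186) for Rhoa. Without dying replicate 1 these were 0.76 and 0.88. The other Rhoa probe, A_43_P13040, read 4.46 and 3.45 in surviving neurons and 1.53 and 3.05 in dying neurons (adjusted p = 0.193), with dying replicate 2 closer to the surviving arrays.

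In the other direction, Vav2, an exchange factor that Eph receptors recruit for ephrin endocytosis, read 5.16 and 5.50 in naïve rats, 5.71 and 6.04 in sham rats, 4.73 and 4.43 in surviving neurons and 7.32 and 6.36 in dying neurons. Wasl, an activator of actin branching, read 1.15 and 1.15 in naïve rats, 1.70 and 1.92 in sham rats, -0.76 and -0.82 in surviving neurons and 0.97 and 1.85 in dying neurons. Arhgef15, an exchange factor downstream of Eph receptors, read 2.43 and 2.26, then 3.36 and 2.81, then 2.07 and 0.21, and then 2.97 and 2.32 in the same order. Both surviving arrays lay below both dying arrays for each of these, and below naïve and sham as well, which for Vav2 left dying neurons highest of all. Surviving minus dying was -2.26 (adjusted p = 0.112) for Vav2, -2.20 (adjusted p = 0.111) for Wasl and -1.51 (adjusted p = 0.234) for Arhgef15. Without dying replicate 1 these were -1.78, -2.64 and -1.18. That of Arhgef15 rested on surviving replicate 2, being -0.58 without it and -2.43 without surviving replicate 1, and was -1.83 without dying replicate 2. Other probes of these genes were tested for Arhgef15 (A_44_P117282, 0.81 and 0.58 against 0.70 and 0.73) and Vav2 (A_43_P10233, -2.27 and 0.66 against 0.17 and -0.72, with surviving replicate 1 below background), both with overlapping groups. The former was at least 1.89-fold above sham in surviving (adjusted p = 0.0489) and at least 1.91-fold in dying neurons (adjusted p = 0.0247). Without dying replicate 2 the differences of Nck1 (4.34), Rhoa (3.15), Vav2 (-2.74) and Wasl (-1.76) passed the threshold, with adjusted p of 0.00929, 0.0166, 0.0150 and 0.0333. Over all alternatives the adjusted p reached 0.641 for Nck1, Rhoa and Wasl and 0.814 for Vav2, each with its lowest value there.

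**Figure D4:**
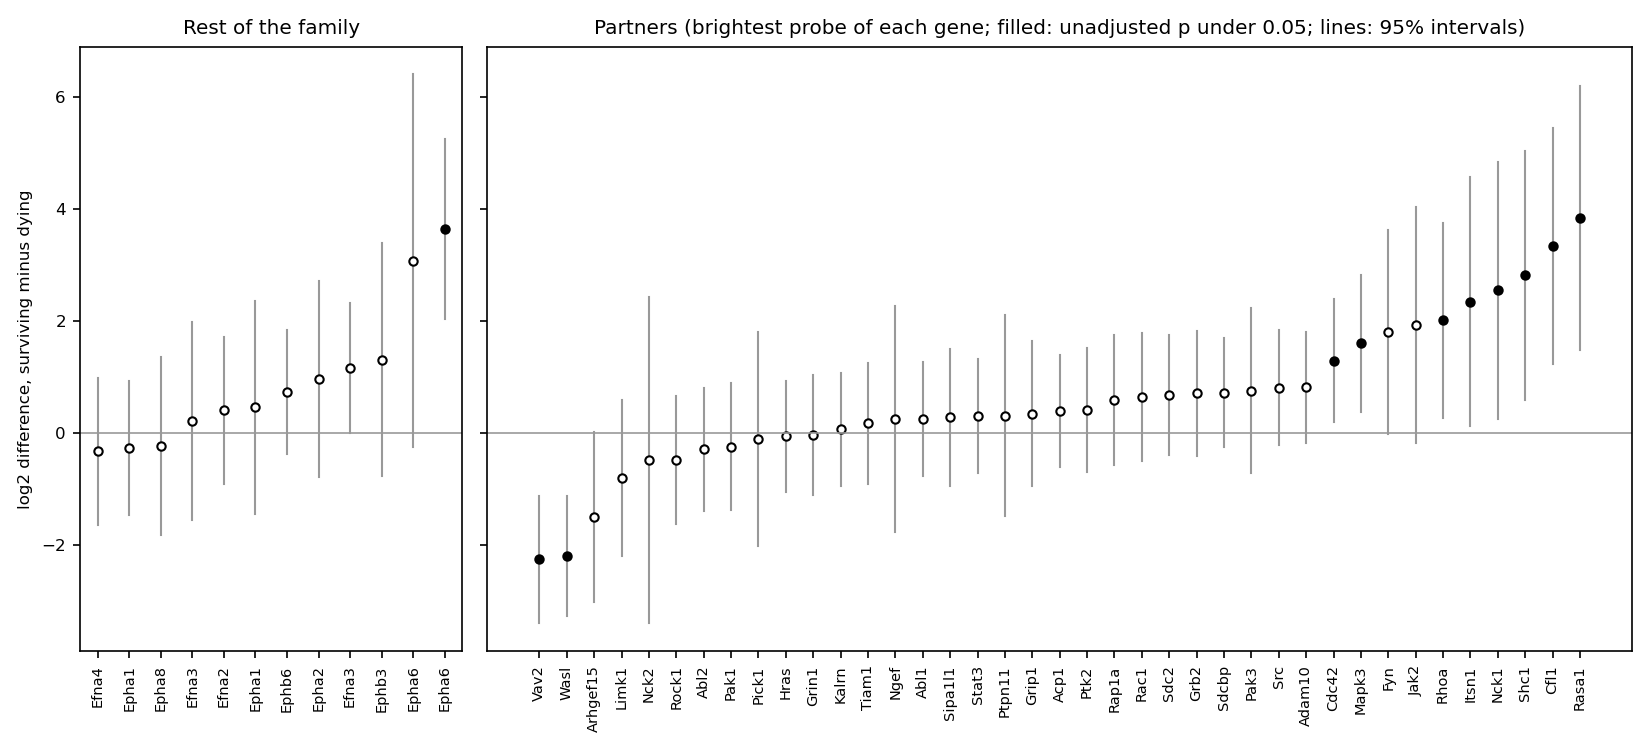
Log2 difference, surviving minus dying (vertical axis), with 95% intervals, of the 12 tested probes of the rest of the family and of the brightest probe of 39 of the 40 tested partner genes, with 1 left out (horizontal axis), with filled points for an unadjusted p under 0.05. Among the partners shown 8 filled points lie above 0 and 2 below it.

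Markers of cell types were summed on each array as signal over the array median, from the brightest probe of each gene with a value on all 8 arrays. Of 12 pyramidal neuron genes 9 had a probe, all but Neurod6, Map2 and Rbfox3, and the sum over 8 of them, without Stmn2, whose spot was non-uniform on 3 arrays, was 6248.5 and 8765.7 in naïve rats, 11667 and 10034 in sham rats, 6507 and 6263.3 in surviving neurons and 3242.2 and 3365 in dying neurons. Nrgn had the largest reading summed over the arrays, the probes of a list not being comparable in strength, and each array measured 8 or 9 of the genes. Against sham 4 of 9 fell in dying neurons, beside 29.0% of all probes, 1 of them Stmn2 from 1 dying array, and 1 of 8 in surviving neurons, beside 12%, while between surviving and dying neurons 0 of 8 passed in limma, 2 were higher at an unadjusted p under 0.05, beside 10.9% of all, and 6 had both surviving arrays higher, beside 30.4%. The sum, which Nrgn dominates, was lowest in dying neurons, as were Ephb1 and Epha7. Of the single pyramidal genes, all 9 had a negative difference between dying neurons and sham, and all 8 tested a positive one between surviving and dying neurons. Neurod2 was the exception to the lowest place of dying neurons, with 3.75 and 5.21 in naïve rats and 3.93 and 6.14 in dying neurons. The part of these markers in the values of Ephb1 and Epha7 was not tested.

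The microglia and macrophage list, 10 of 11 genes on the array, summed to 130.9 and 259.6 in naïve rats, 268 and 250.2 in sham rats, 308.8 and 344.1 in surviving neurons and 1971.8 and 1068.6 in dying neurons. C1qb had the largest reading summed over the arrays, with C1qa above it on 5 of the 8. The defining markers Itgam, Cx3cr1 and Ptprc were below background on all naïve and sham arrays, and Ptprc on all but surviving replicate 2. Against sham 4 of 8 rose in dying neurons, beside 15.1% of all probes, and 0 of 9 passed in surviving neurons in limma, with 2 higher and 1 lower at an unadjusted p under 0.05, beside 13.7% and 23.2% of all. Between surviving and dying neurons 0 of 9 passed, with 5 lower in surviving neurons at an unadjusted p under 0.05, beside 10.6% of all. The interneuron list, 6 of 6 and with the largest reading summed over the arrays from Pvalb, though Vip read highest on naïve replicate 1 and Sst on naïve replicate 2 and dying replicate 1, summed to 330.2 and 452.7, 415.6 and 393.9, 164.3 and 146.9, and 676.1 and 158.7 in the order naïve, sham, surviving and dying. Gad1 and Gad2, its defining enzymes, were above background on 5 and 4 of the 8 arrays. The astrocyte list, 7 of 8 and by the same measure led by Slc1a3, summed to 868.4 and 1017, 1472.4 and 926.4, 492.6 and 511.5, and 1220.2 and 541.4, with S100b above background on 3 arrays.

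The oligodendrocyte list, 5 of 7 and led by Mog, summed to 174.5 and 257.1, 225.7 and 290.1, 58.5 and 63.6, and 177.1 and 73.3 in the same order. The oligodendrocyte precursor list, 4 of 4 and led by Olig1, summed to 408 and 382.9, 577.8 and 432.4, 251.7 and 280.7, and 1011.9 and 547.8, with Olig2 above background on 3 arrays. The endothelium and pericyte list, 8 of 9 and led by Pdgfrb, though Kdr read highest on 3 arrays and Vwf on 3, summed over 7 genes to 84.1 and 123.8, 133.1 and 106.3, 84.9 and 76.5, and 393.7 and 151.8, with Tek above background on 0 arrays. Every list but that of pyramidal neurons was higher on dying replicate 1 than on dying replicate 2 and than on both surviving arrays. Between surviving and dying neurons 0 genes of these lists passed in limma, and at an unadjusted p under 0.05 those lower in surviving neurons were 1 of 5 interneuron genes, 0 of 6 astrocyte genes, 0 of 5 oligodendrocyte genes, 2 of 4 precursor genes and 2 of 7 endothelial genes, beside 10.6% of all probes, and 1 astrocyte gene, Slc1a2, was higher, beside 10.9%. The part of these cells in the values of Eph receptors and ephrins, Efnb1 among them, was not tested.

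**Figure D5:**
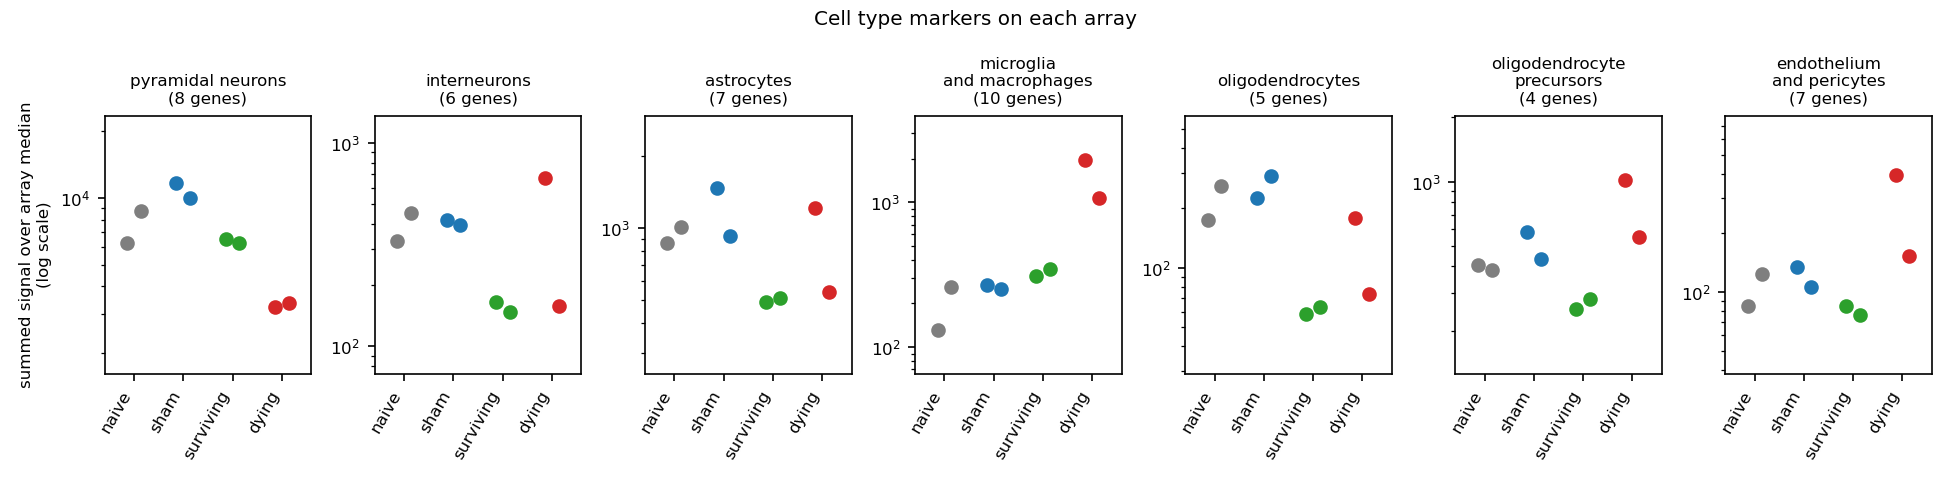
Summed signal over the array median (vertical axis, log scale) of the marker genes of 7 cell types on each of the 8 arrays by group (horizontal axis), 1 point for each array. The pyramidal sum is lowest in dying neurons, and the sum of microglia and macrophage markers is highest there.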

How the data were processed

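The arrays, 2 for each of 4 groups, were read from 8 files of single arrays and from the series table. Per the file headers, the authors obtained the processed intensities from Agilent Feature Extraction 9.1.3.1, which took off background and trends within an array and did not normalize between arrays. The same deposited files hold mean and background intensities and the marks for spots well above background, saturated (0 spots) or non-uniform. The series table holds a signal that the authors made from the same arrays, found by comparison to be the processed signal over 1 constant for each array, and it served as an alternative. The RNA was amplified before labelling, with RiboAmp HS or MessageAMP II according to the labels and MessageAMP II according to the methods, and the kit used for each pool is not stated.

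Signals were averaged over the uniform spots of a probe, divided by the median probe of the array, raised to at least 0.01 and put on the log2 scale. The groups were compared in limma 3.58.1 (R 4.3.3), with 1 model for all 8 arrays. Tests covered probes that at least 1 of the 2 groups measured well above background on both arrays and were 2-sided, with Benjamini-Hochberg adjustment over all of them within a comparison and a threshold of 0.05. Where a group had no array well above background, each of its arrays was given the lowest signal among the probes it measured, or that of the probe if higher, and the fold became a bound. Such a bound holds for the main scaling and is no minimum over the alternatives. The SE and adjusted p given beside it belong to the difference of the readings.

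Every member probe was described. For the rest of the family, the 3 probes of largest difference between surviving and dying neurons among those above background on all 4 arrays were named, and for partners the 3 genes in each direction by the same measure, each from its brightest probe, with 1 of these genes left out of the text and the plot. Marker lists covered pyramidal neurons, interneurons, astrocytes, microglia and macrophages, oligodendrocytes, their precursors, and endothelium and pericytes. The members and lists were chosen with earlier results of these data known. Sequences came from RefSeq on GRCr8, and the accessions of 6 of the 14 member probes were found there under the same symbol.

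Alternatives were scaling to the 75th percentile or to the median of RefSeq probes, quantile normalization, the normexp correction with an offset of 50, the series table, a floor of 0.1, non-uniform spots kept, stricter and no background filters, a fit of the 4 arrays compared, the replicate number or a crossed pairing as a block, the mean over the probes of a gene, and leaving out each array. The crossed pairing, the blocks with 4 arrays and the differences of single probes against sham under the alternatives were chosen after seeing the data.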

Additional observations from a re-analysis of the deposited data

How the results depend on the processing

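For surviving against dying neurons, 0 probes passed with all arrays under every alternative but 2, both chosen after seeing the data and fitted to those 4 arrays alone. There, 455 passed with crossed pairing as a block and 246 with the replicate number as a block. Of those higher in surviving neurons with the crossed pairing, 1 was among the 8 member probes, 1 among the 12 of the rest of the family and 1 among the 40 partners, beside 0.737% of all. With the replicate number these were 0, 1 and 0, beside 0.361% of all. With all 8 arrays, 0 passed with either block in limma, with 5497 at an unadjusted p under 0.05 for the replicate number and 5606 for the crossed pairing. Deviations of arrays with the same number correlated at r = -0.194 across 15250 probes for surviving and dying neurons, 0.0498 for surviving neurons and sham, 0.0169 for dying neurons and sham and 0.00895 for sham and naïve rats. With single arrays left out, 0 to 6002 passed.

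For surviving neurons against sham, 0 passed with normexp, 3109 with probes above background on all 4 arrays, 12167 in a fit of those arrays alone and 253 to 513 with single arrays left out. For dying neurons against sham, 0 passed with normexp, 7156 with probes above background on all 4 arrays and 3050 to 13437 with single arrays left out. With the replicate number as a block, 3488 and 10406 passed. Of the calls for surviving neurons against sham, 36.2% were higher, but 73.4% with the 75th percentile, 59.3% with quantile normalization and 25.6% with RefSeq probes. For dying neurons these were 34.2%, 59.7%, 56.3% and 39.3%. Between sham and naïve rats, 1 probe passed with quantile normalization and 118 in a fit of those arrays alone.

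With RefSeq scaling, 2 of the member probes had an unadjusted p under 0.05 in limma between surviving and dying neurons, beside 5.36% of all higher in surviving neurons. With normexp 0 did, beside 2.86%. Member probes with surviving and dying arrays fully apart, in either direction, were 4 with probes above background on all 4 arrays, where 5 were tested. With single arrays left out they were 7 to 9, where 9 or 10 were tested. Without dying replicate 2 all 9 tested were apart, 7 higher and 2 lower in surviving neurons. The share of all probes fully apart is not given for these settings, and a lone array is more easily apart. Nothing is therefore concluded from these counts.

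Signs reversed for Ephb2 between surviving and dying neurons (-0.14 without dying replicate 2, with a range up to 0.88 over single arrays left out, and -0.24 as the mean of its probes) and for Epha3 (-0.032 with normexp). Against sham they reversed in surviving neurons for Epha5 A_42_P498708 (-0.16 without sham replicate 1, -0.19 without surviving replicate 1, range up to 0.60) and A_44_P184706 (-0.15 without surviving replicate 1, range up to 0.93), and in dying neurons for RGD1560587 A_44_P464812 (-0.23 without sham replicate 1, -0.25 without dying replicate 2, range up to 1.05). Over all differences of named probes, 533 values under an alternative kept their sign and side of the threshold, 43 lost a call, 12 gained one, 8 reversed, and the mean over the Ephb1 probes, which counts in a reading below background, moved to 2.37. The cause was not tested. Of the 4 member ephrins only Efnb1 was measured on both arrays of a group, which limits what can be said of the others.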
